A study of Mus musculus with 17 samples.

Results

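The genes described here are 32 genes of cholesterol and fatty acid synthesis, measured in cultured mouse astrocytes. They were chosen by symbol from a list of pathway regulators and enzymes, with a mean of at least 10 counts over the 17 libraries as a further condition. All 32 symbols on the list had a row and met that condition, among 56691 gene rows in the count table. By role they comprised 4 regulators, 7 genes of the mevalonate steps, 11 genes of the squalene and sterol steps, 4 genes of fatty acid supply and synthesis and 6 genes of fatty acid elongation and desaturation.

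Astrocytes came from the whole brains of postnatal day 2 C57BL/6 mice, without olfactory bulbs, cerebellum and meninges, and were purified by immunopanning, in which CD45+ and O4+ cells are depleted on antibody-coated dishes and astrocytes are then retained with an antibody to HepaCAM. All groups were kept in serum-free medium with HB-EGF. DMSO (3 libraries) or SAG, a small-molecule agonist of the SHH pathway, at 500 ng/ml (3 libraries) was added on day 3 for 3 days. PBS (4 libraries), FGF2 at 50 ng/ml (4 libraries) or FGF10 at 50 ng/ml (3 libraries) was added on day 2 for 7 days. The labels number the replicates without saying whether they came from separate preparations, so p-values measure the spread between these libraries, which may in part be technical. The study used these cultures to ask how SHH and FGF signaling change astrocyte gene expression, and the lipid synthesis genes were compared between SAG and DMSO, between each FGF and PBS, between FGF2 and FGF10, and between the PBS and DMSO solvent groups.

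Cholesterol is built from acetyl-CoA through mevalonate and isoprenoid units to squalene, which is closed into lanosterol and then trimmed to cholesterol. The transcription factors SREBP1 and SREBP2 (from *Srebf1* and *Srebf2*) are made as membrane proteins. The escort protein SCAP carries them to the Golgi for cleavage when sterols are low, and INSIG proteins hold SCAP in the endoplasmic reticulum when sterols are high. SREBP2 acts mainly on sterol genes and SREBP1 mainly on fatty acid genes, together with the factors NF-Y and SP1 at nearby sites. Astrocytes make much of the brain's cholesterol and pass it to neurons in lipoprotein particles.

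The promoters of 4 genes are shown because the results turn on these genes: *Hmgcs1*, the only promoter found with the sterol regulatory element searched, *Nsdhl* and *Fasn*, whose SAG libraries were all above the DMSO libraries, and *Fads2*, the gene at the highest level. Each window runs from 250 bases before to 50 bases after the gene's start, 5′ to 3′ on the gene's strand, from RefSeq on GRCm38.p6. They are *Hmgcs1* at chr13:119690101-119690400 (plus strand), *Nsdhl* at chrX:72918271-72918570 (plus), *Fasn* at chr11:120824498-120824797 (minus) and *Fads2* at chr19:10101454-10101753 (minus). Capitals mark the letters TCACNCCAC (a sterol regulatory element), CCAAT (the NF-Y box), GGGCGG (the SP1 box) and CACGTG (an E-box), read on both strands, so that ATTGG and CCGCCC are marked too.
Hmgcs1: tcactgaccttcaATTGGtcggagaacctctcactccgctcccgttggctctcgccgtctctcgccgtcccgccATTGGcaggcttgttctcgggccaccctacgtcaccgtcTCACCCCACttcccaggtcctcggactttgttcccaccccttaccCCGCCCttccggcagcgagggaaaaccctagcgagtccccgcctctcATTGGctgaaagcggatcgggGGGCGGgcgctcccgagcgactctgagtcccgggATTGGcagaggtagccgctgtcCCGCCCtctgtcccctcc
Nsdhl: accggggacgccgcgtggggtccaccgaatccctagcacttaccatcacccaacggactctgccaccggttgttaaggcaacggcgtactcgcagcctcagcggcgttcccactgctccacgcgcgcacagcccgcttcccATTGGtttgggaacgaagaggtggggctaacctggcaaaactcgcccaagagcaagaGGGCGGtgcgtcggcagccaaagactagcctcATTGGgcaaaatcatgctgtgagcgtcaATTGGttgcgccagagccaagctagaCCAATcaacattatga
Fasn: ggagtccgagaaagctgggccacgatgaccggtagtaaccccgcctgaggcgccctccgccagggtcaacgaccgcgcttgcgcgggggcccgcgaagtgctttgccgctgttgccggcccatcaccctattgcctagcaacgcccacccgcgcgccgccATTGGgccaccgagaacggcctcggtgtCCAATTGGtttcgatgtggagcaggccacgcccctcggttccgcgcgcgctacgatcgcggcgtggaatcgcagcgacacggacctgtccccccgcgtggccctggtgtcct
Fads2: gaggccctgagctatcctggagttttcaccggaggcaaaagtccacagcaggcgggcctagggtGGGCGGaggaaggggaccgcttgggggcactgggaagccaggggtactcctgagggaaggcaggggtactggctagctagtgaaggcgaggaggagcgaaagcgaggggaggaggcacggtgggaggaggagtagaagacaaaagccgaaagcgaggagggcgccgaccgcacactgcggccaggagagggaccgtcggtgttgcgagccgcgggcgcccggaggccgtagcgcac

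RefSeq promoters were matched for 26 of the 32 genes, not for *Fdps*, *Fdft1*, *Sqle*, *Scd1*, *Scd2* and *Fads1*. CCAAT stood in 21 of these 26 promoters (80.8%), against 41.1% of the promoters of 27025 genes, and GGGCGG also stood in 21 (80.8%), against 38.2%. CACGTG stood in 6 (23.1%), against 8.09%. TCACNCCAC stood only in *Hmgcs1*, with its first base at position -137 from the start (3.85%, against 1.44%). In the *Fasn* window 2 of the 3 NF-Y boxes overlap on opposite strands. A match describes letters in this window and does not show that a factor binds there.

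Libraries held from 17481727 to 68342287 counts. All 10 genes of an astrocyte marker list were detected in every group, and 9 microglial markers summed to at most 4.4 CPM (counts scaled to a common library size). The SAG groups differed as labelled in *Ptch1*, a target of SHH signaling (458 to 482 CPM with SAG, against 67.5 to 103 CPM in the DMSO libraries). Within the PBS, FGF2 and FGF10 groups the libraries numbered 3 and 4 stood apart from those numbered 1 and 2 in the lipid synthesis genes. In the 5 libraries numbered 3 or 4, between 23 and 30 of the 32 genes were above their own median over all 17 libraries, and in the 6 libraries numbered 1 or 2 between 5 and 10 were. The labels do not say what the numbers mark.

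**Figure D1:**
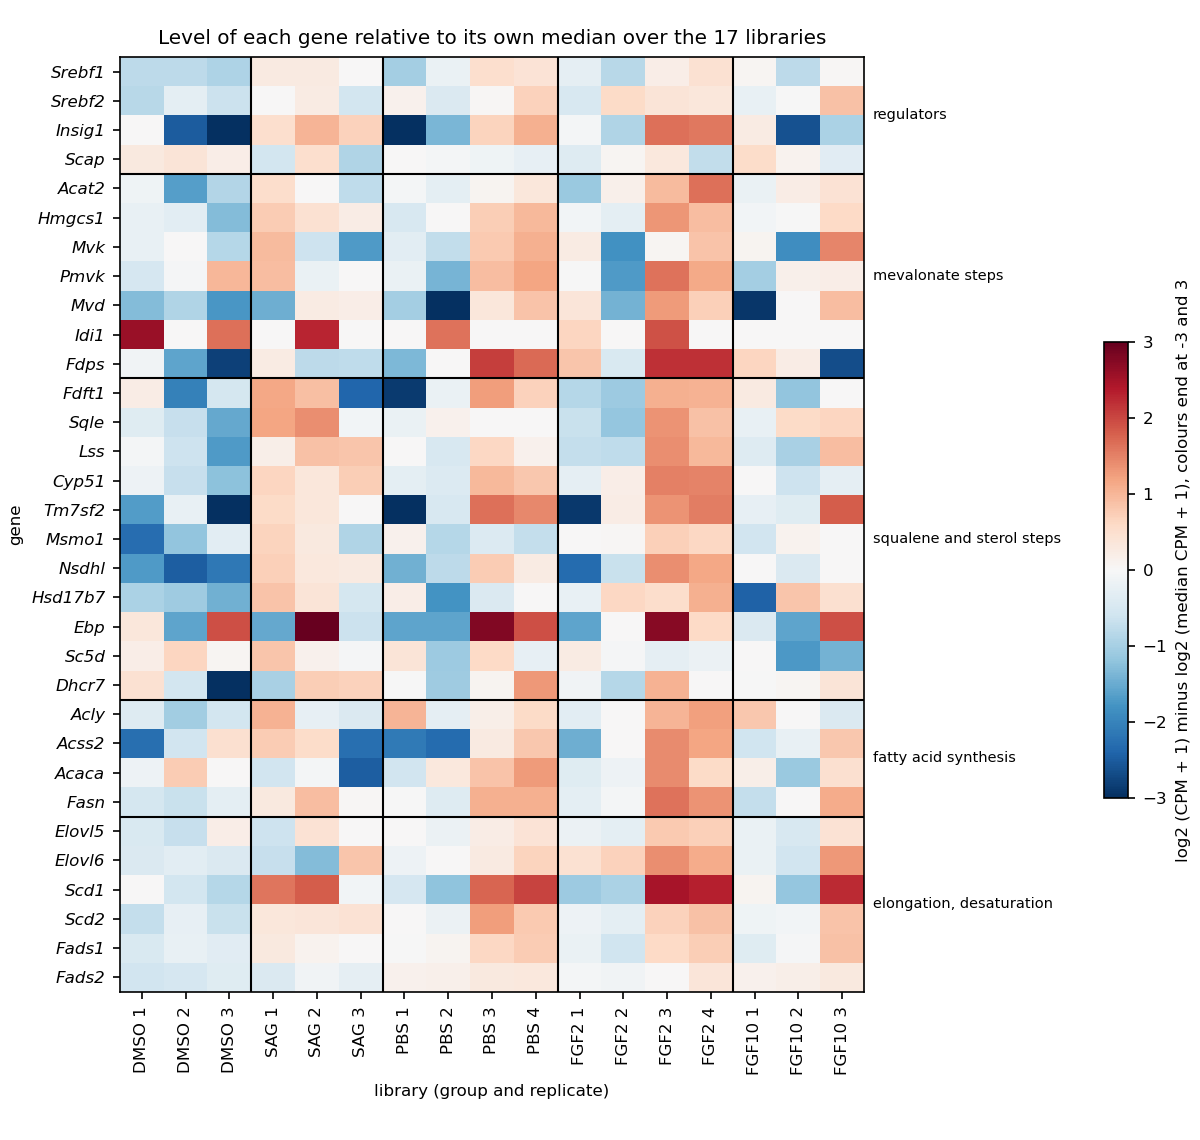
Level of each of the 32 genes (rows, by role) in each of the 17 libraries (columns), as log2 (CPM + 1) relative to the gene's median. Mostly red columns are PBS, FGF2 and FGF10 replicates 3 and 4 and SAG replicates 1 and 2, and mostly blue columns are DMSO and replicates 1 and 2 of PBS and FGF2.

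Levels are given in CPM on one scale for all 17 libraries, adjusted by the TMM factors of edgeR. The libraries read 1 region at the 3′ end of each transcript, so that long transcripts give no more counts than short ones. The desaturases stood highest. *Fads2*, which places the Δ6 double bond in polyunsaturated fatty acids, averaged 1891 CPM over the 5 group means, and *Scd2*, the main stearoyl-CoA desaturase of the brain, averaged 1366 CPM. Next came *Hmgcs1*, which makes HMG-CoA (334 CPM), *Fads1*, the Δ5 desaturase (297 CPM), *Srebf1* (238 CPM), *Elovl5*, an elongase of polyunsaturated fatty acids (206 CPM), and *Fasn*, the fatty acid synthase (197 CPM). *Fads1* and *Fads2* lie near each other on chromosome 19 (10182877 to 10196874 and 10062765 to 10101503, GRCm38.p6), as do *Scd1* and *Scd2* (44394450 to 44407709 and 44293676 to 44306864).

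The remaining regulators *Srebf2* and *Scap* averaged 120 and 117 CPM, and *Scd1*, a second stearoyl-CoA desaturase, averaged 99.4 CPM. The enzymes between lanosterol and cholesterol ran from *Msmo1*, the sterol C4-methyl oxidase, at 82.1 CPM and *Cyp51*, the lanosterol demethylase, at 77.8 CPM down to *Ebp*, the sterol isomerase, at 6.6 CPM. Reads were absent in some libraries for the genes at the lowest levels. *Idi1*, the isopentenyl diphosphate isomerase, had no read in 11 of 17 libraries, *Ebp* in 5, *Insig1* in 2, and *Fdps*, the farnesyl diphosphate synthase, and *Tm7sf2*, a sterol C14 reductase, in 1 each. A count of 0 allows up to 3 counts, which is 0.0447 to 0.172 CPM over these libraries and covers counting error only. Of these, *Ebp* ranged from 0.0287 to 31.7 CPM within SAG, and 1 library made up most of its SAG mean.

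With SAG, the genes of both pathways stood higher than with DMSO on balance, and none passed the test after adjustment. Of the 32 genes, 29 had a higher fitted level with SAG, with a median log2 fold change of 0.97, while 48.9% of the 12538 genes tested were higher and their median was -0.02. Among the genes with the smallest p-values were *Scd2* (fatty acid desaturation), *Nsdhl* (the sterol C4 decarboxylase), *Srebf1* (the regulator) and *Hmgcs1* (entry into the mevalonate steps). Fewer cells that express a gene and less RNA per cell cannot be told apart in such bulk libraries. No gene of the 32 was called at an adjusted p under 0.05 by edgeR's quasi-likelihood test, which called 0.0638% of all genes. At an unadjusted p under 0.05, 11 of the 32 were higher and 0 lower, against 2.63% of all genes higher and 384 of 12538 lower. In 12 of the 32 every SAG library was above every DMSO library, against 5.96% of all genes. In none was every SAG library below, against 1029 of the 12538 genes.

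The calls depended on the test. DESeq2, the tool of the study, called 8 of the 32, all higher (*Scd2*, *Srebf1*, *Nsdhl*, *Hmgcs1*, *Scd1*, *Fasn*, *Sqle* and *Cyp51*), with adjusted p-values from 3.56e-08 for *Scd2* to 0.0199 for *Cyp51*, and it called 3.01% of all genes. The test of edgeR without a filter on low counts called 5 of the 32 (*Srebf1*, *Scd2*, *Nsdhl*, *Scd1* and *Hmgcs1*) and 0.408% of all genes, and the same 5 where genes were kept at a mean count of 10 or more (0.265%). An exact permutation test of 3 against 3 libraries cannot give a two-sided p under 0.1.

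Among the regulators, *Srebf1* had 149, 149 and 136 CPM in the DMSO libraries and 314, 312 and 260 CPM in the SAG libraries. The groups did not overlap, and the log2 fold change was 1.05 (SE 0.20, edgeR adjusted p = 0.118). *Srebf2* had 65.2, 94.5 and 73.7 CPM with DMSO and 116, 138 and 78.7 CPM with SAG, with SAG 3 inside the DMSO range (log2 fold change 0.53, SE 0.30, edgeR adjusted p = 1). *Insig1*, which retains SCAP and is itself a target of the SREBPs, had 12.7, 1.42 and 0 CPM with DMSO and 18.4, 26.9 and 21.3 CPM with SAG. These groups did not overlap either, but the spread of the DMSO libraries left a log2 fold change of 2.26 with an SE of 1.74 (edgeR adjusted p = 1). *Scap* went the other way in 2 libraries, with 143, 151 and 134 CPM with DMSO and 78.8, 165 and 61.6 CPM with SAG (log2 fold change -0.47, SE 0.34, edgeR adjusted p = 1).

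In the mevalonate steps 6 of 7 genes were higher with SAG. *Hmgcs1* had 234, 220 and 111 CPM with DMSO and 460, 373 and 319 CPM with SAG. All 3 SAG libraries were above the DMSO libraries (log2 fold change 1.05, SE 0.28, edgeR adjusted p = 0.425). The other 6 genes were *Acat2* (acetoacetyl-CoA thiolase), *Mvk* and *Pmvk* (the mevalonate and phosphomevalonate kinases), *Mvd* (the decarboxylase), *Idi1* and *Fdps*. Their log2 fold changes ran from -0.85 for *Idi1*, with reads in 2 DMSO libraries and 1 SAG library, to 1.24 for *Mvd*, and none of them reached an unadjusted p under 0.05.

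In the squalene and sterol steps 11 of 11 genes were higher, with a median log2 fold change of 1.32, the largest median among the roles. The 5 at an unadjusted p under 0.05 were *Nsdhl*, *Sqle*, *Cyp51*, *Msmo1* and *Lss* (the synthase that closes the ring of lanosterol). *Nsdhl* had 14.7, 8.08 and 10.4 CPM with DMSO and 82.0, 62.3 and 60.4 CPM with SAG. Its lowest SAG library was well above its highest DMSO library, and its log2 fold change of 2.64 (SE 0.49, edgeR adjusted p = 0.109) was the largest fitted one of the 32. *Sqle*, the squalene epoxidase, had 28.8, 22.5 and 12.1 CPM with DMSO and 84.7, 98.3 and 34.7 CPM with SAG, again without overlap (log2 fold change 1.80, SE 0.53, edgeR adjusted p = 0.469). *Fdft1*, the squalene synthase, did overlap, with 20.9, 3.56 and 11.9 CPM against 41.1, 33.9 and 2.58 CPM (log2 fold change 1.11, SE 1.09, edgeR adjusted p = 1). *Dhcr7*, a reductase of the last steps, had 47.1, 22.9 and 1.54 CPM with DMSO and 16.9, 56.8 and 55.4 CPM with SAG, and its libraries overlapped as well (log2 fold change 0.88, SE 0.93, edgeR adjusted p = 1). *Tm7sf2* and *Hsd17b7*, the sterol C3 ketoreductase, did not overlap but had unadjusted p-values of 0.05 or more, as did *Ebp*, and *Sc5d*, the C5 desaturase, differed least of the 11 (log2 fold change 0.05).

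In fatty acid synthesis, *Fasn* had 101, 91.9 and 120 CPM with DMSO and 179, 279 and 151 CPM with SAG, without overlap (log2 fold change 0.99, SE 0.27, edgeR adjusted p = 0.425). *Acly*, which releases acetyl-CoA from citrate, had 37.2, 23.0 and 32.7 CPM against 101, 40.9 and 35.8 CPM, where SAG 1 carried most of the difference (log2 fold change 0.95, SE 0.51, edgeR adjusted p = 1). *Acss2*, the acetyl-CoA synthetase, had a log2 fold change of 0.59, and *Acaca*, the acetyl-CoA carboxylase that makes malonyl-CoA, one of -1.02. All 6 genes of elongation and desaturation were higher with SAG. *Scd2* had 691, 953 and 720 CPM with DMSO and 1429, 1462 and 1540 CPM with SAG. It had the smallest p of the 32, and its SAG libraries lay close together (log2 fold change 0.93, SE 0.17, edgeR adjusted p = 0.101). *Scd1* had 47.4, 32.1 and 26.0 CPM with DMSO and 148, 169 and 44.6 CPM with SAG, with SAG 3 below DMSO 1 (log2 fold change 1.79, SE 0.47, edgeR adjusted p = 0.425). *Fads1* did not overlap (293 ± 30.2 against 211 ± 16.8 CPM in DMSO libraries, SD over 3 libraries per group), and *Fads2*, *Elovl5* and *Elovl6*, an elongase of saturated fatty acids, did (log2 fold changes 0.24, 0.31 and 0.34).

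SAG 3 was the least distinct of the SAG libraries. In SAG 1, SAG 2 and SAG 3, 22, 24 and 11 of the 32 genes were above their own medians, and in the DMSO libraries 6, 3 and 7 were. Marker lists of other cells moved with the groups in part. A list of 10 genes of the oligodendrocyte lineage summed to 2229 to 2417 CPM with SAG and 1533 to 2081 CPM with DMSO. *Olig2*, which some astrocytes also express, made up most of it (1763 to 1910 CPM against 939 to 1437 CPM), while *Sox10* was lower with SAG (42.8 ± 5.04 against 94.0 ± 23.1 CPM, SD, n = 3 each). *Mog*, a gene of mature oligodendrocytes, was at 0 in both groups. A list of 9 neuronal genes summed to 26.1 to 75.4 CPM with SAG and 73.5 to 215 CPM with DMSO, and 6 endothelial and mural genes summed to 7.63 to 18.1 CPM and 23.5 to 28.2 CPM. In these lists *Gad1*, *Gad2* and *Pdgfrb* were below every DMSO library in every SAG library (4.46 ± 6.09 against 32.4 ± 11.7 CPM for *Gad2*, 2.15 ± 3.72 against 21.7 ± 2.34 CPM for *Pdgfrb*), and the endothelial genes *Cldn5* and *Pecam1* were at 0 in both groups. The other neuronal, endothelial and mural genes overlapped. Of these, *Rbfox3* (22.0 ± 10.9 against 19.8 ± 10.6 CPM), *Snap25*, *Nefl*, *Kdr* (7.25 ± 2.67 against 2.30 ± 3.08 CPM), *Flt1* and *Rgs5* were higher in mean with SAG. *Tubb3*, *Stmn2* and *Syt1* were lower in mean, and *Slc17a7* was at 0. The 10 astrocyte markers differed in direction. *Gfap* (25.1 to 60.1 CPM with SAG against 139 to 198 CPM), *Sox9* and *Gja1* were lower without overlap, *Aldh1l1* was higher without overlap (199 to 353 CPM against 151 to 173 CPM), and *Slc1a2*, *Slc1a3*, *Aldoc*, *Aqp4*, *S100b* and *Hepacam* overlapped. The part of these levels in the lipid synthesis genes was not tested.

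**Figure D2:**
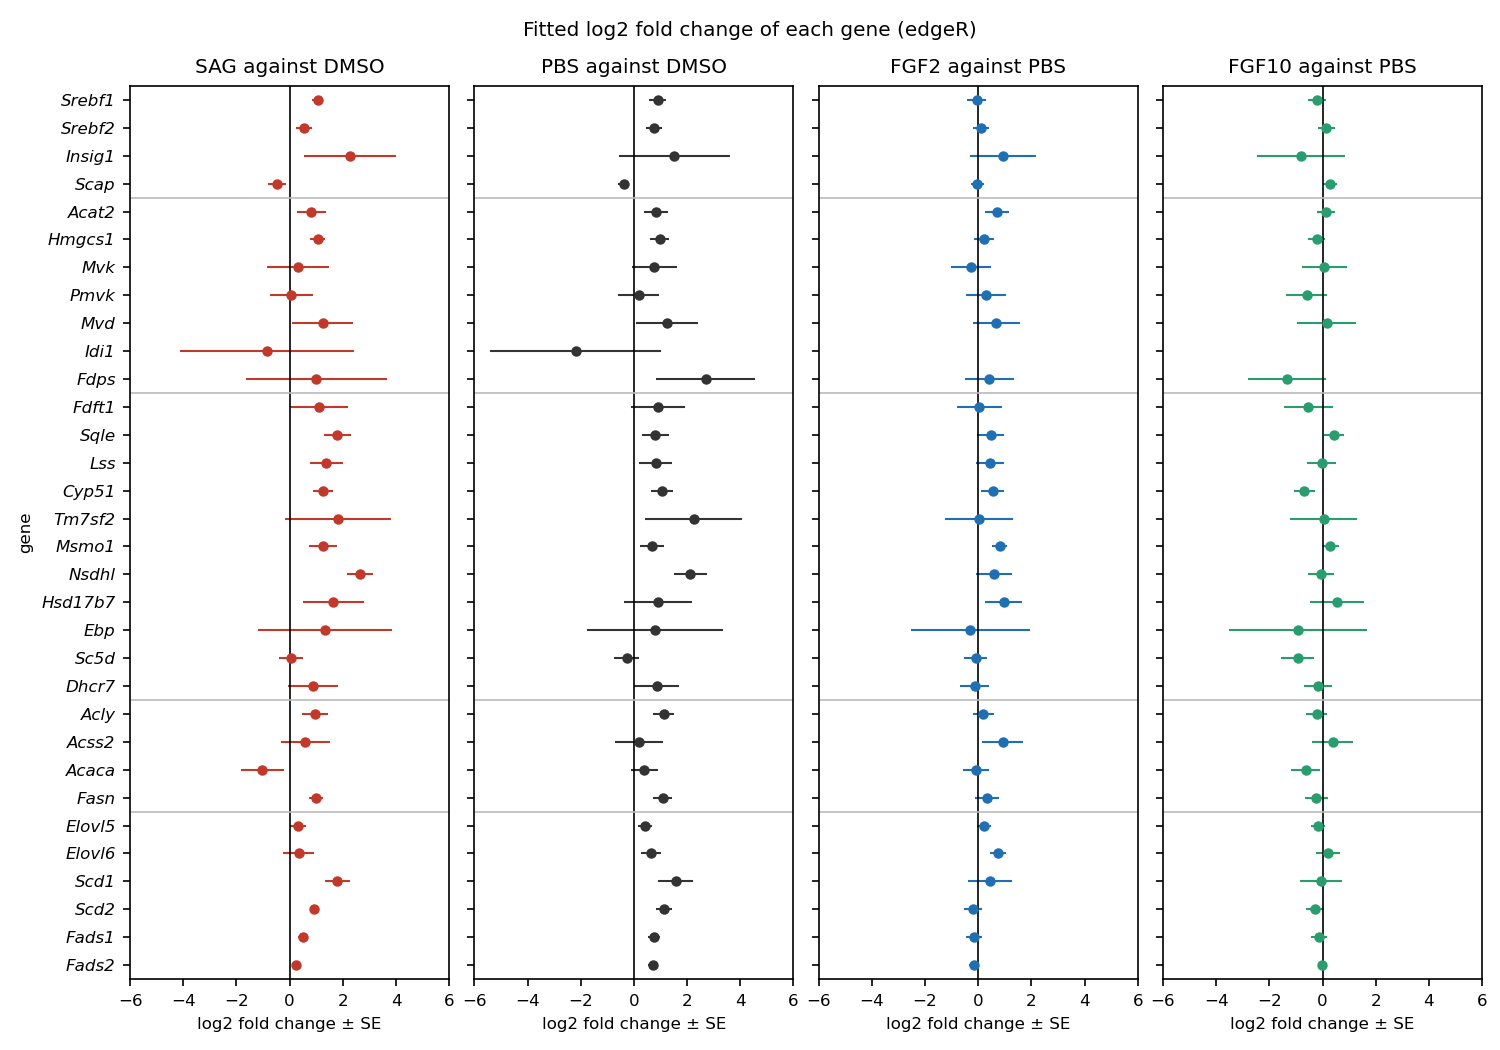
Fitted log2 fold change (points) with its SE (bars) of each of the 32 genes in SAG against DMSO, PBS against DMSO, FGF2 against PBS and FGF10 against PBS. In the first and second panel 29 of 32 points lie above 0, and in the FGF2 and FGF10 panels 21 and 11 of the 31 genes tested do.

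With FGF2 no lipid synthesis gene passed the adjusted threshold against PBS, and some genes, such as *Sqle*, spread more widely among the FGF2 libraries than among the PBS libraries. *Idi1* did not pass the filter on low counts, which left 31 genes. Of these 21 had a higher and 10 a lower fitted level with FGF2 than with PBS, with a median log2 fold change of 0.22, and 50.1% of all genes were higher. No gene of the 31 was called by edgeR, which called 0% of all genes, and 2 had an unadjusted p under 0.05, against 1.75% of all genes. DESeq2 called none of the 31 and 0.805% of all genes, and in none did the libraries of the groups separate (2.45% of all genes). Without FGF2 3 the count of higher genes was 13 and the median was -0.029.

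*Srebf1* had 128, 225, 372 and 344 CPM in PBS replicates 1 to 4 and 214, 145, 299 and 358 CPM in FGF2 replicates 1 to 4. The ranges coincided (log2 fold change -0.06, 95% interval -0.74 to 0.61). *Hmgcs1* had 194, 273, 457 and 538 CPM with PBS and 259, 223, 679 and 516 CPM with FGF2 (log2 fold change 0.20, 95% interval -0.54 to 0.95). *Fasn* had 145, 111, 308 and 308 CPM with PBS and 120, 142, 458 and 377 CPM with FGF2 (log2 fold change 0.34, 95% interval -0.53 to 1.20). In all these genes the libraries numbered 3 and 4 were the high ones in both groups. *Scd2* had 1137, 1006, 2714 and 1970 CPM with PBS and 1022, 926, 1850 and 2080 CPM with FGF2 (log2 fold change -0.21, 95% interval -0.88 to 0.46). *Sqle* was nearly constant with PBS, at 32.3, 40.3, 37.5 and 37.0 CPM, and spread widely with FGF2, at 22.8, 15.9, 95.1 and 69.1 CPM (log2 fold change 0.47, 95% interval -0.51 to 1.46). The upper bounds for *Fasn* and *Sqle* lie above a log2 value of 1. The 2 genes at an unadjusted p under 0.05, chosen after their values were seen, were *Msmo1* (117 ± 29.9 CPM with FGF2 and 67.6 ± 21.8 CPM with PBS, log2 fold change 0.80, SE 0.29, edgeR adjusted p = 1) and *Elovl6* (91.5 ± 26.7 and 54.8 ± 14.7 CPM, log2 fold change 0.75, SE 0.30, edgeR adjusted p = 1), with SD over 4 libraries each.

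With FGF10 no lipid synthesis gene passed the adjusted threshold against PBS, and the direction of many genes turned with the handling of the replicate numbers. PBS has 2 of 4 libraries numbered 3 or 4, the high ones in these genes, and FGF10 has 1 of 3. Of the 31 genes tested 11 were higher and 20 lower, with a median log2 fold change of -0.14, and 49.9% of all genes were higher. With the replicate number as a block 18 of the genes were higher, with a term for replicates 1 and 2 against 3 and 4 it was 21, and within replicates 1 and 2 alone 20, and the fitted differences of *Srebf1* and *Hmgcs1* turned to above 0 in all 3 of these fits, none of them called. No gene of the 31 was called by edgeR (0% of all genes), none had an unadjusted p under 0.05 (2.29% of all genes), none separated the groups (4.79% of all genes), and DESeq2 called none (0.666% of all genes). Single libraries moved the direction too, since the count of higher genes was 18 without PBS 3, 7 without PBS 2 and 5 without FGF10 3, and the median turned to 0.016 without PBS 3 and 0.010 without PBS 4. *Srebf1* had 271, 151 and 266 CPM in the FGF10 libraries (log2 fold change -0.22, 95% interval -0.89 to 0.45) and *Hmgcs1* had 259, 270 and 411 CPM (log2 fold change -0.22, 95% interval -0.86 to 0.42). *Fasn* had 89.2, 147 and 320 CPM (log2 fold change -0.23, 95% interval -1.09 to 0.63). FGF10 3 was again the high library in *Fasn*, and so it was in *Scd2*, with 1045, 1072 and 2052 CPM (log2 fold change -0.29, 95% interval -0.97 to 0.38). *Sqle* had 31.7, 55.9 and 58.8 CPM (log2 fold change 0.42, 95% interval -0.33 to 1.16). The PBS libraries are shared with the comparison of FGF2.

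**Figure D3:**
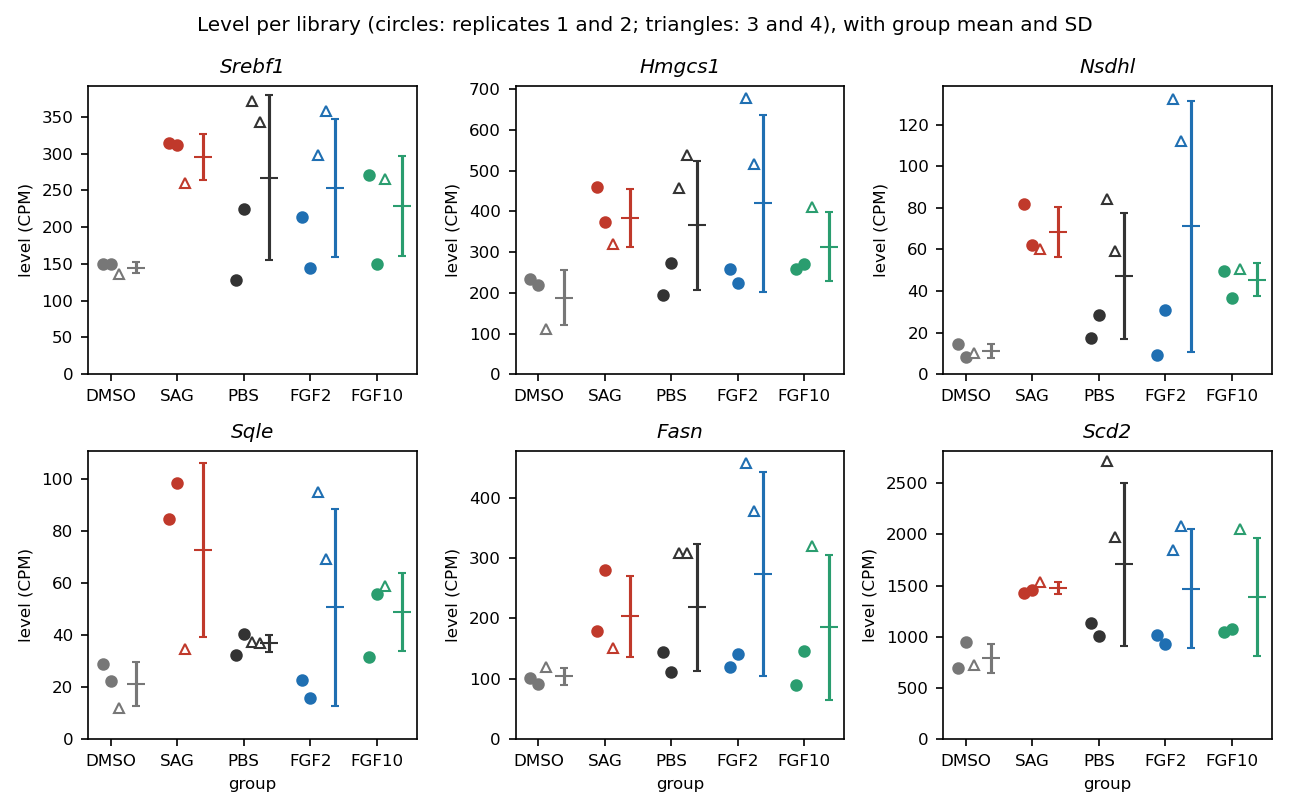
Level in CPM of *Srebf1*, *Hmgcs1*, *Nsdhl*, *Sqle*, *Fasn* and *Scd2* in each library, by group, with circles for replicates 1 and 2, triangles for replicates 3 and 4, and the group mean with its SD at the side. In *Hmgcs1*, *Nsdhl*, *Fasn* and *Scd2* every triangle of PBS, FGF2 and FGF10 is above every circle of these groups.

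Set against each other, FGF2 and FGF10 gave 25 of 31 genes higher and 6 lower with FGF2 (median log2 fold change 0.50). None was called by edgeR (0% of all genes), 1 had an unadjusted p under 0.05 (2.4% of all genes), none separated the groups (4.9%) and DESeq2 called none (0.543%). That gene, named after its values were seen, was *Cyp51*, with 52.0, 72.1, 181 and 178 CPM with FGF2 and 62.5, 40.6 and 51.7 CPM with FGF10 (log2 fold change 1.23, SE 0.44, edgeR adjusted p = 1). FGF2 has 2 libraries numbered 3 or 4 and FGF10 has 1. Within replicates 1 and 2 alone, 13 of the genes were higher with FGF2 and the median was -0.13.

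Among the PBS, FGF2 and FGF10 libraries the lipid synthesis genes separated by replicate number, across all 3 groups. In 13 of the 32 genes all 5 libraries numbered 3 or 4 were above all 6 numbered 1 or 2, against 2.36% of all genes, and in none were all below, against 2.19%. These were *Hmgcs1*, *Pmvk*, *Lss*, *Tm7sf2*, *Nsdhl*, *Ebp*, *Acss2*, *Acaca*, *Fasn*, *Elovl5*, *Scd1*, *Scd2* and *Fads1*, so that each role but the regulators had members among them. In 31 of 32 the mean was higher in replicates 3 and 4, the exception being *Scap*, and the median log2 difference was 1.06, against -0.042 over all genes. The split was drawn with earlier results of these data known and is given as a description, without a test.

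*Scd1* showed it most clearly of the genes at over 20 CPM in every library, with 33.3, 20.2, 161 and 197 CPM in PBS replicates 1 to 4, 21.8, 24.0, 269 and 244 CPM in FGF2 replicates 1 to 4 and 50.3, 20.6 and 226 CPM in FGF10 replicates 1 to 3. No library fell between 50.3 and 161 CPM. *Nsdhl* had 17.6, 28.5, 84.3 and 59.2 CPM with PBS, 9.17, 30.7, 132 and 112 CPM with FGF2 and 49.7, 36.5 and 50.5 CPM with FGF10, where the gap was narrow. *Fads2*, the gene at the highest level, barely differed, at 1793 to 2169 CPM in replicates 1 and 2 and 1917 to 2485 CPM in replicates 3 and 4. Among the regulators *Srebf1* ran from 128 to 271 CPM and from 266 to 372 CPM, with an overlap of 1 library on each side. *Srebf2* had 126, 85.5, 118 and 188 CPM with PBS, 82.4, 172, 153 and 146 CPM with FGF2 and 99.8, 114 and 213 CPM with FGF10. *Insig1* had 0, 4.31, 20.8 and 27.9 CPM with PBS, 12.1, 6.35, 42.2 and 40.1 CPM with FGF2 and 15.4, 1.24 and 6.15 CPM with FGF10. It was high in replicates 3 and 4 of PBS and FGF2 but not in FGF10 3. *Scap* ran from 88.1 to 171 CPM in replicates 1 and 2 and from 68.9 to 144 CPM in replicates 3 and 4.

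The enzymes *Fdft1*, *Dhcr7* and *Acly* overlapped between the sets. *Fdft1* had 1.58, 15.3, 44.0 and 29.5 CPM with PBS, 9.33, 7.79, 38.1 and 37.4 CPM with FGF2 and 21.6, 7.25 and 17.7 CPM with FGF10. *Dhcr7* had 33.7, 15.7, 35.7 and 84.8 CPM with PBS, 31.3, 18.3, 71.1 and 33.9 CPM with FGF2 and 33.5, 35.4 and 44.7 CPM with FGF10. *Acly* had 98.8, 39.9, 55.5 and 72.7 CPM with PBS, 38.7, 48.6, 100 and 116 CPM with FGF2 and 86.5, 48.8 and 35.8 CPM with FGF10, without an order by number. Markers moved with the numbers as well. *Olig2* was at 756 to 985 CPM in replicates 1 and 2 and 1502 to 2217 CPM in replicates 3 and 4, *Gfap* was at 257 to 402 CPM and 10.8 to 87.8 CPM, and *Aldh1l1* was at 166 to 246 CPM and 302 to 432 CPM. *Sox9* was at 1412 to 1727 CPM in replicates 1 and 2 and 822 to 991 CPM in replicates 3 and 4. Some markers of other cells were lower in replicates 3 and 4 without overlap. *Gad2* was at 29.2 to 45.7 CPM and 0 to 3.96 CPM, and *Tubb3* at 42.5 to 87.9 CPM and 6.98 to 29.0 CPM. *Pdgfrb* was at 14.4 to 64.8 CPM and 0 to 5.70 CPM. *Rbfox3*, *Snap25* and *Sox10* overlapped between the sets. Microglial markers stayed at most 4.4 CPM in sum. The part of these levels in the lipid synthesis genes was not tested.

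**Figure D4:**
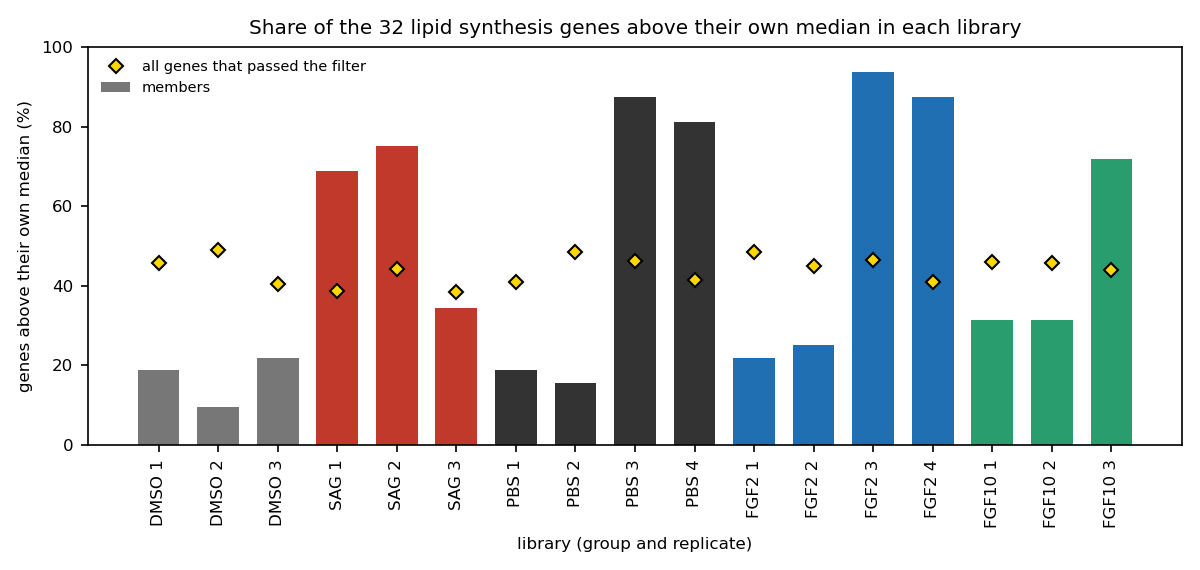
Share of the 32 genes above their own median over the 17 libraries, per library (bars, colored by group), with the same share of all genes (diamonds, 38.5 to 48.8%). Replicates 3 and 4 of PBS, FGF2 and FGF10 and SAG replicates 1 and 2 lie above the diamonds by far, and the DMSO libraries lie below them.

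The PBS cultures stood above the DMSO cultures in most of these genes, and *Fads2*, *Scd2*, *Nsdhl* and *Fads1* had the smallest p-values of the 32. The solvent, the day of addition and the time in culture (to day 9 with PBS and day 6 with DMSO) differ between the groups and cannot be told apart. Of 32 genes 29 had a higher fitted level with PBS, with a median log2 fold change of 0.82, and 51.1% of the 13271 genes tested were higher. None was called by edgeR (0% of all genes), 11 were higher at an unadjusted p under 0.05 (2.92% of all genes), and 7 separated the groups upward (3.04%) and 1, *Scap*, downward (3.41%). DESeq2 called 3 (*Fads2*, *Nsdhl* and *Fads1*), with 1.3% of all genes. The DMSO libraries are those set against SAG.

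*Fads2* had 1290, 1357 and 1500 CPM with DMSO and 2100, 2123, 2366 and 2389 CPM with PBS. Its groups were far apart next to their spread (log2 fold change 0.71, SE 0.17, edgeR adjusted p = 0.978, exact two-sided permutation p = 0.0286, the smallest that 4 against 3 libraries gave), and the PBS libraries of both replicate sets took part. For *Scd2* the log2 fold change was 1.13 (SE 0.31, edgeR adjusted p = 0.978), with PBS replicates 1 and 2 close to the highest DMSO library. *Fads1* had 194, 228 and 211 CPM with DMSO and 265, 282, 408 and 450 CPM with PBS, without overlap (log2 fold change 0.75, SE 0.23, edgeR adjusted p = 1). *Nsdhl* did not overlap either (log2 fold change 2.11, SE 0.62, edgeR adjusted p = 1). *Acly* was above DMSO in all 4 PBS libraries (log2 fold change 1.12, SE 0.40, edgeR adjusted p = 1), and so was *Sqle* (log2 fold change 0.81, SE 0.51, edgeR adjusted p = 1). *Scap* was at 98.3 to 116 CPM with PBS and 134 to 151 CPM with DMSO (log2 fold change -0.39, SE 0.22, edgeR adjusted p = 1).

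*Srebf1* (log2 fold change 0.90, SE 0.31), *Srebf2* (0.75, SE 0.30), *Hmgcs1* (0.97, SE 0.35), *Fasn* (1.08, SE 0.35) and *Scd1* (1.57, SE 0.64) were at an unadjusted p under 0.05 with overlapping libraries, with an adjusted p of 1 each by edgeR, and so was *Cyp51*. *Insig1* (1.51, SE 2.09), *Fdft1* (0.91, SE 1.02) and *Dhcr7* (0.85, SE 0.83) were not. PBS replicates 3 and 4 carried much of this. With PBS replicates 1 and 2 alone, 19 genes were higher, the median was 0.28 and 3 had an unadjusted p under 0.05 (4.27% of all genes in either direction). With replicates 3 and 4 alone, edgeR called *Srebf1*, *Fasn*, *Scd2* and *Scd1* (0.203% of all genes). The subsets were chosen after the values were seen. PBS replicates 3 and 4 are the high ones in these genes, so their calls follow in part from that choice and are given as a description. With all PBS libraries and no filter on low counts edgeR called *Scd2* and *Scd1* (0.185%). Without PBS 4 alone, 7 rather than 11 had an unadjusted p under 0.05. *Olig2* was at 756 and 951 CPM in PBS 1 and 2 and at 1657 and 1777 CPM in PBS 3 and 4, against 939 to 1437 CPM in the DMSO libraries, and its part was not tested.

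A further list of 32 genes of sterol and fatty acid uptake, export, storage and regulation was read for comparison. With SAG 28 of these were tested, 16 were higher and 12 lower. None was called by edgeR (0.0638% of all genes) and DESeq2 called 4 (3.01% of all genes). At an unadjusted p under 0.05, 5 were higher (2.63% of all genes) and 1 lower (384 of 12538 genes). The lower one was *Abca1*, the cholesterol exporter that liver X receptors induce (278 ± 25.1 against 491 ± 56.4 CPM in DMSO libraries, SD over 3 libraries per group, log2 fold change -0.80, SE 0.18, edgeR adjusted p = 0.301). *Fabp7*, the fatty acid binding protein of radial glia and astrocytes, was among the higher ones (2263 ± 210.2 and 1523 ± 135 CPM, log2 fold change 0.60, SE 0.14, edgeR adjusted p = 0.369). With FGF2 none of 29 reached an unadjusted p under 0.05 (1.75% of all genes), and with FGF10 1 of 30 did (*Fabp5*, lower, 2.29%). Between FGF2 and FGF10 none of 29 did (2.4%). Between PBS and DMSO 4 of 30 did, all higher with PBS (*Fabp5*, *Npc2*, *Fabp7* and *Mid1ip1*, against 2.92% of all genes higher). In each of these 4 comparisons edgeR and DESeq2 called none of the list, against 0% and 0.543 to 1.3% of all genes.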

How the data were processed

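RNA of 17 libraries of immunopanned mouse astrocytes (3 DMSO, 3 SAG, 4 PBS, 4 FGF2 and 3 FGF10) was measured by 3′-end RNA-seq. The authors removed BC1 transcripts, set the number of PCR cycles for each library, and used STAR to align the reads and to count them by gene, and the submitters' processing notes name GRCm38. The annotation, strand setting and use of molecular identifiers are not given in the sources used here. The deposited values are whole-number counts per gene without normalization. All 17 columns were used, and 114 spike-in rows were left out.

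Groups came from the sample labels. The count table heads the SAG columns Shh, with the same replicate numbers, and no other group activates that pathway. The study's methods give 1 FGF2 replicate fewer than the labels, and all 4 were used. For each comparison only its own groups were fitted in edgeR 4.0.16 (R 4.3.3, limma 3.58.1), after filterByExpr (minimum count 10, minimum total 15) and TMM normalization, with the quasi-likelihood test and Benjamini-Hochberg adjustment over all genes tested. A gene was called at an adjusted p under 0.05. CPM levels use TMM factors over all 17 libraries. Standard errors are the size of the log2 fold change divided by the root of F. The 95% intervals apply normal quantiles to these standard errors, so they run narrower than the quasi-likelihood test would give with so few libraries. The heatmap uses a pseudocount of 1 CPM. Other fits used DESeq2 1.42.0 (Wald test), other scalings and filters, all libraries in one fit, replicate blocks, subsets of replicates and each library left out in turn. The edgeR steps were tested on simulated data. Recovery of the changed genes was required only at a dispersion well below that of these libraries, so this does not show the power of the tests here.

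The members, roles and further lists were chosen with earlier results of these data known. Values per library were given for the regulators, 8 enzymes and, for SAG against DMSO and PBS against DMSO, the 4 genes with the smallest p whose libraries did not overlap. In the FGF comparisons 5 genes were followed. Library totals ran from 17481727 to 68342287, and the common biological coefficient of variation was 107 to 117%, so that the spread between libraries set the precision. Promoters are from RefSeq on GRCm38.p6. Same-numbered replicates were checked for shared deviations and were not treated as paired in the main fits.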

Additional observations from a re-analysis of the deposited data

Results flagged for a closer look

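Within the groups of 4 libraries each gene was examined for 1 library far from the other 3 by Dixon's ratio. Of 64 pairs of gene and group and 12 sums by role, 1 passed the 95% limit, where chance passes about 1 in 20. This was *Idi1* with PBS, with a ratio of 1: PBS 2 held 73 counts (2.07 CPM) and PBS 1, PBS 3 and PBS 4 held 0. Over all 17 libraries *Idi1* had reads in 6, with 30 to 262 counts in these.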

How the results depend on the processing

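The count of calls with SAG, 0 of 32 in edgeR, was 5 without a filter on low counts, 5 with genes kept at a mean count of 10 or more and 8 by DESeq2, while 27 to 29 genes stayed higher and the median log2 fold change ran from 0.90 to 0.98 under all alternatives that kept the 6 libraries. Between PBS and DMSO the calls were 2 without a filter, 3 by DESeq2 and 4 with PBS replicates 3 and 4 only. With PBS replicates 1 and 2 only, the count of higher genes was 19, the count at an unadjusted p under 0.05 was 3, the median was 0.28, and *Insig1* (-1.13), *Fdft1* (-0.52) and *Scd1* (-0.40) reversed. The subsets of PBS replicates and the counts of higher genes were added after seeing the data.

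The main fits did not pair the samples by replicate number. Same-numbered libraries had correlations of their deviations from -0.015 to 0.156, and not every pair of a comparison was over 0.1. Among PBS, FGF2 and FGF10 all were above 0 (0.052 to 0.156), and in the comparisons with DMSO they were near 0. Taken over all genes at once, this check cannot decide whether same-numbered libraries share a preparation. With the replicate number as a block, the count at an unadjusted p under 0.05 between PBS and DMSO was 6, and with FGF10 18 genes were higher than PBS. The set of replicates as a term gave 21, and replicates 1 and 2 alone gave 20. In FGF10 against PBS, *Srebf1* and *Hmgcs1* reversed to 0.00424 and 0.095 with the block, 0.00524 and 0.042 with the set, and 0.25 and 0.18 within replicates 1 and 2. In FGF2 against FGF10, *Srebf1*, *Sqle* and *Scd2* reversed to -0.069, -0.52 and -0.12 with the block, to -0.050, -0.32 and -0.10 with the set and to -0.22, -1.17 and -0.11 within replicates 1 and 2, where *Hmgcs1* was -0.13, the median -0.13 and 13 genes were higher. In FGF2 against PBS within replicates 1 and 2, *Srebf1* was 0.033 and *Sqle* -0.89. The cause was not tested.

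Leaving out 1 library at a time moved the count of higher genes from 5 to 18 in FGF10 against PBS and from 13 to 27 in FGF2 against PBS, and the count at an unadjusted p under 0.05 from 7 to 11 in PBS against DMSO. With SAG the median ran from 0.76 to 1.11 and 26 to 28 genes were higher. Log2 fold changes that reversed ran, in FGF10 against PBS, from -0.89 to 0.082 for *Fasn*, -0.47 to 0.025 for *Hmgcs1* and -0.69 to 0.016 for *Scd2*. In FGF2 against FGF10 they ran from -0.13 to 0.48 for *Scd2*, -0.44 to 0.36 for *Sqle* and -0.071 to 0.35 for *Srebf1*. In FGF2 against PBS they ran from -0.029 to 0.59 for *Fasn*, -0.13 to 0.46 for *Hmgcs1*, -0.43 to 0.11 for *Scd2*, -0.023 to 0.77 for *Sqle* and -0.30 to 0.14 for *Srebf1*. Genes at a few CPM, such as *Idi1*, *Ebp* and *Fdps*, are limited by the libraries in which they had no read.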
